A study of Mus musculus with 12 samples.

Results

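The mitochondrial ribosomal protein genes were followed across 12 RNA-seq libraries of AML12, a mouse hepatocyte cell line, in 4 groups of 3 libraries. They were chosen by gene symbol, as every symbol that starts with Mrpl or Mrps and goes on with a number and at most 1 letter. The rule found 78 genes of the 19037 in the table, 49 named Mrpl for the large subunit and 29 named Mrps for the small one, and no measured value entered it. By structure 51 belong to the large subunit and 26 to the small, since the products of Mrps30 and Mrps18a sit in the large subunit. The remaining one, Mrps36, encodes KGD4, a subunit of the alpha-ketoglutarate dehydrogenase complex. The symbol rule misses 5 genes of mitoribosomal proteins with other names (Dap3, Chchd1, Aurkaip1, Ptcd3 and Gadd45gip1), which are given beside the 78.

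Of the 4 groups 1 was the control. Another received FK228 (romidepsin, an inhibitor of class I histone deacetylases, or HDACs), another overexpressed class I HDAC mutants labelled YF, and the last had both. Codes in the sample descriptions carry GFP for the control and FK228 groups and YF for the other two groups, with no further explanation. The study set the transcriptional effects of FK228 and of the mutants beside each other, alone and combined. AML12 was labelled as hepatocytes from liver, and each group is this 1 line. The labels name no dose or time, nor the HDACs that were mutated or how they were delivered. They also do not say whether the libraries of a group were separate cultures; the p-values then reflect only how the 3 libraries vary, which may be technical variation.

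The mitochondrial ribosome makes the proteins encoded by mitochondrial DNA, which are core subunits of the respiratory chain and ATP synthase. Its RNAs come from mitochondrial DNA, while its proteins are encoded in the nucleus, made in the cytosol and imported. Many of these proteins have a bacterial homolog (named with u or b, such as uL10m), and others are specific to mitochondria (named with m, such as mS25). Assembly factors help join RNA and proteins into each subunit.

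Estimated counts per library ran from 23664446 to 26122998, and the 78 genes all passed the filter on low counts, among 13346 genes tested. Every fold change and adjusted p below comes from 1 edgeR quasi-likelihood fit to the 12 libraries, adjusted by Benjamini-Hochberg over those 13346 genes, and a gene is called at an adjusted p under 0.05. Hdac1 was called higher with YF, by 2.04 on the log2 scale. The albumin gene Alb, a defining hepatocyte marker, was near 0 in control. Its level was 0.0387 ± 0.000177 CPM (counts scaled to library size, mean ± SD, n = 3). At so few counts this SD says little about how the libraries vary. In control Hnf4a was at 178 ± 7.51 CPM and Apob at 429 ± 26.2. Over 12 tested hepatocyte markers, 9 were lower and 2 higher with FK228, 5 and 2 with YF, and 11 and 1 with both treatments. All genes tested gave 35.5% lower and 33.2% higher with FK228, 14.6% and 18% with YF, and 38.6% and 38.8% with both. Summed, the hepatocyte markers ran from 3831 to 4079 CPM in control and 3290 to 3542 under FK228. They ran from 3523 to 3597 under YF and 2131 to 2578 under both treatments. Other marker sums moved with the groups too. Macrophage and leukocyte markers summed to 136 to 182 CPM in control and 48.4 to 53.2 under FK228. They summed to 108 to 131 under YF and 61.4 to 71.8 under both treatments. Of 6 tested, 4 were higher and 1 lower with FK228 (66.7% and 16.7%), so the sum fell while most tested genes rose. With YF 2 were higher and 1 lower (33.3% and 16.7%), and with both 3 and 1 (50% and 16.7%). Cd14 fell with FK228 (-2.86 on the log2 scale), whereas Cd68 (3.17) and Lyz2 (2.595) rose. Adgre1 and Clec4f were at or near 0. Stellate and mesenchymal markers summed to 7.67 to 10.5 CPM in control, 31.5 to 33.0 under FK228, 12.7 to 17.98 under YF and 32.3 to 40.2 under both. Only 3 of these 8 markers were tested. Of them 2 were higher with FK228 (66.7%), 1 with YF (33.3%) and 3 with both (100%), and none was lower. Cholangiocyte markers summed to 5106 to 5165 CPM in control and 5667 to 6068 under FK228. Under YF they summed to 5581 to 5796 CPM and under both to 4453 to 5265. Of 7 tested, 4 were lower and 1 higher with FK228 (57.1% and 14.3%), among them Krt19 (-1.81) and Spp1 (0.36). With YF 4 were lower and 1 higher as well (57.1% and 14.3%), although the sum was above control. With both treatments 5 were lower (71.4%) and none higher. Endothelial markers, none of which was tested, summed to 0.116 to 0.194 CPM in control and 0.405 to 0.868 under FK228. These sums were 0.381 to 0.632 under YF and 0.667 to 1.575 under both treatments, with Lyve1 at or near 0. The part of these shifts in the results below was not tested, and in such bulk RNA fewer cells of a kind and less RNA per cell cannot be told apart.

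Levels of the 78 genes can be compared with each other only per length, so the deposited TPM, which is scaled for transcript length, is used for that. In control the mean TPM ran from 10.02 ± 0.648 (SD, n = 3) for Mrpl19, a large subunit gene, to 828 ± 9.95 for Mrps21, a small subunit gene, a span of 82.6-fold. The median was 84.1 TPM, with 102 for the large and 77.3 for the small subunit genes. Behind Mrps21 came Mrpl33 with 696 ± 33.4, Mrpl52 with 543 ± 18.6, Mrpl42 with 416 ± 20.7 and Mrpl54 with 401 ± 27.1. The first 3 lie apart by more than their SDs, whereas Mrpl42 and Mrpl54 do not. At the low end Mrps25, Mrpl17, Mrpl41 and Mrps31 lay between 22.1 and 22.7 TPM, and Mrpl35 at 20.4 ± 1.47 lay within the SD of Mrps31 and of Mrpl41. The median coefficient of variation of CPM between the libraries of a group was 5.43% in control, 8.25% under FK228, 5.18% under YF and 3.83% under both treatments.

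FK228 versus control shows what the inhibitor did in cells without YF. It moved these genes in both directions and by small amounts. Of 78, 16 rose (20.5%), 30 fell (38.5%) and 32 were not called, with a median log2 fold change of -0.10. Over all genes tested 33.2% were called higher and 35.5% lower, with a median of -0.02. No member changed 2-fold, where 18.8% of all genes tested did. Large subunit genes split into 14 higher and 18 lower (median -0.04), and small subunit genes into 2 higher and 11 lower (median -0.11). The plot of fold changes by comparison shows both subunits around 0 here, with the longest upper tail in the large one.

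**Figure D1:**
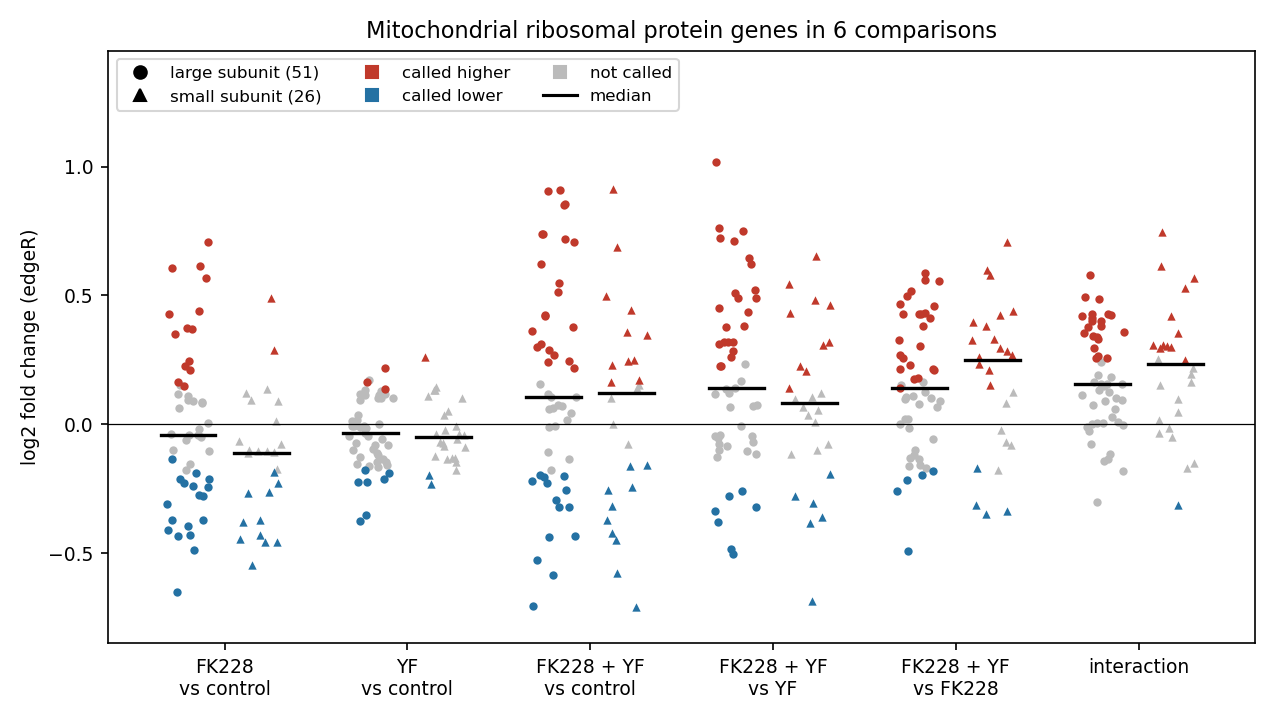
Log2 fold changes (edgeR, y axis) of the 51 large subunit genes (circles) and 26 small subunit genes (triangles) in 6 comparisons (x axis); Mrps36 is left out. Red points were called higher, blue ones lower and grey ones not called, and black bars are medians. In the interaction 33 of the points are red and 1 is blue.

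The gene that rose most with FK228 was Mrpl10, whose product uL10m anchors the stalk that brings GTPase factors to the ribosome. Its levels were 86.6, 87.4 and 90.2 CPM in control, 146, 146 and 139.9 under FK228, 99.5, 94.8 and 96.4 under YF, and 158, 159.5 and 159 under both treatments. All 6 libraries with FK228, with or without YF, lay above the other 6, with no overlap. The log2 fold change with FK228 was 0.71 ± 0.05 (SE; adjusted p = 7.99e-11). Mrpl53, whose product mL53 is specific to mitochondria, fell most. Its levels were 70.0, 68.4 and 77.4 CPM in control, 53.3, 42.1 and 41.9 under FK228, 61.5, 74.8 and 67.5 under YF, and 49.2, 48.5 and 46.2 under both treatments. Again the libraries with FK228 stood apart, here below the rest, and the log2 fold change was -0.65 ± 0.09 (SE; adjusted p = 2.04e-06). Mrpl53 shares 695 exon bases with the read-through gene Gm42688 on the same strand. Gm42688 was not among the genes tested, and whether reads were divided between them is not known. The promoters of this pair are shown because they mark the extremes of the FK228 response. They are bases of the RefSeq promoter windows (GRCm38.p6), on the plus strand, cut off at the GENCODE start. That start lies 22 bases before the RefSeq start for Mrpl10 and 68 for Mrpl53. For Mrpl10 the stretch is chr11:97041332-97041559, with a match to an NRF1 motif in capitals. For Mrpl53 it is chr6:83108858-83109039, with no capitals. Its 2 matches, to an ETS motif, begin 59 and 16 bases before the RefSeq start, downstream of the stretch shown.
Mrpl10: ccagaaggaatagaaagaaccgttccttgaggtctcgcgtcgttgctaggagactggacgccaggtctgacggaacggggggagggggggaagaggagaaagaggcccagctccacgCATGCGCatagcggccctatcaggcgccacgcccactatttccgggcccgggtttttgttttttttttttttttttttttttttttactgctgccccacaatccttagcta
Mrpl53: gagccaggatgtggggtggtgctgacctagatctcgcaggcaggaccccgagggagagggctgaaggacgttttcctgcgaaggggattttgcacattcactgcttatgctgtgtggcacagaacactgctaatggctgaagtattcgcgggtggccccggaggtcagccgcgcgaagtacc

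Among large subunit genes, Mrpl43 had 163, 163 and 181 CPM in control and 276, 258 and 243 under FK228, Mrpl24 had 75.8, 79.5 and 77.9 CPM in control and 121, 121 and 113 under FK228 and Mrpl45 had 96.8, 102 and 112 CPM in control and 156, 155 and 149 under FK228. In each the FK228 libraries lay above control without overlap, with log2 fold changes of 0.61 ± 0.06, 0.61 ± 0.05 and 0.57 ± 0.06. Products of Mrpl24 and Mrpl45 line the exit of the peptide tunnel, and mL45 contacts the inner membrane. Mrpl43 shares 507 exon bases on the opposite strand with Twnk, the mitochondrial DNA helicase gene, which itself rose by 0.68, and Mrpl24 shares 594 with Rrnad1 (0.21). No source used here says whether counting used the strand, so reads of such pairs cannot be told apart. The rest of the 10 highest were Mrpl30 (0.44), Mrpl49 (0.43), Mrpl33 (0.37), Mrpl52 (0.37) and Mrpl28 (0.35) of the large subunit and Mrps23 (0.49) of the small one. The call of Mrpl33 ended without control replicate 2 (adjusted p = 0.07), when its value was 0.33, and its value without FK228 replicate 1 was 0.23. Mrpl49 shares 91 exon bases with Syvn1.

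Small subunit genes filled 5 of the 9 remaining places among the 10 lowest. Mrps25, which encodes the mitochondria-specific mS25, had 112, 116 and 121 CPM in control and 90.2, 75.5 and 73.5 under FK228. Its groups did not overlap, and it fell, with a log2 fold change of -0.55 ± 0.07 (SE; adjusted p = 3.56e-07). The others that fell were Mrps6 (bS6m), with a log2 fold change of -0.46, Mrps17 (uS17m, -0.46), Mrps7 (uS7m, in the head of the subunit, -0.45) and Mrps18c (bS18m, -0.43). Of the large subunit, Mrpl50 (-0.49), Mrpl3 (-0.43; uL3m, which reaches towards the peptidyl transferase center), Mrpl37 (-0.43) and Mrpl46 (-0.41) completed this set. Exons of Mrps25 share 4590 bases with Nr2c2 (0.01 with FK228), those of Mrps7 share 119 with Mif4gd (-1.07) and 127 with Gga3 (-0.11), and those of Mrps6 share 159 on the same strand with Slc5a3 (-0.94).

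The 3 FK228 libraries differed among themselves. Against the control mean, the median log2 level of the 78 genes was 0.01 in FK228 replicate 1, -0.10 in replicate 2 and -0.18 in replicate 3, while control libraries ran from -0.05 to 0.06. Without FK228 replicate 3, 22 members were called higher and 24 lower; without replicate 1, 34 were lower. At the level of the group median the difference from control is thus within the spread of single libraries, whereas individual genes such as Mrpl10 and Mrps25 are not.

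YF versus control asked the same of the mutants alone, and few of the 78 genes were called. There were 4 higher (5.13%), 9 lower (11.5%) and 65 not called, with a median log2 fold change of -0.04, beside 18% higher and 14.6% lower over all genes tested. When libraries were scaled by total counts alone, 10 members were higher and 5 lower with a median of 0.011, so the balance of directions turned, beside 22.4% and 9.89% of all genes tested. The higher ones were Mrps23, a small subunit gene, with 55.4, 47.3 and 52.8 CPM in control and 59.2, 67.4 and 59.6 under YF (0.26 ± 0.07 (SE; adjusted p = 0.00589)), and the large subunit genes Mrpl16 (0.22), Mrpl28 (0.16) and Mrpl10 (0.14). Mrps23 kept its call without each of the 6 libraries in turn. Calls of the other 3 ended without several single libraries: Mrpl16 without control replicate 2 or 3 or YF replicate 2 or 3, Mrpl28 without control replicate 1 or 2 or YF replicate 1 or 3, and Mrpl10 without any one control library or YF replicate 1 or 3. Lowest was Mrpl45, at 96.8, 102 and 112 CPM in control and 78, 82.6 and 78.9 under YF, where the groups did not overlap (-0.38 ± 0.06 (SE; adjusted p = 5.08e-05)). Mrpl23 (-0.35), a tunnel exit gene, Mrps25 (-0.23), Mrps30 (-0.22) and Mrpl50 (-0.22) followed. The call of Mrps25 ended without control replicate 3 or YF replicate 3, and that of Mrps30 without control replicate 3 or YF replicate 1. The count of members higher was 1 without control replicate 2 or YF replicate 3 and 2 without control replicate 3 or YF replicate 1. The count lower was 5 without control replicate 3 or YF replicate 1.

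With both treatments more of the genes were called, and more of them higher, than with either alone. Against control 33 rose (42.3%), 25 fell (32.1%) and 20 were not called, with a median of 0.10, beside 38.8% higher and 38.6% lower over all genes tested. Large subunit genes gave 22 higher and 14 lower, and small subunit genes 11 and 10. Mrps23 went to 102, 95.8 and 95 CPM under both treatments, Mrpl28 from 65.4, 61.2 and 68.1 CPM in control to 128, 118 and 120.3 CPM under both treatments, and Mrpl30 from 119, 124 and 129 CPM in control to 236, 233 and 230.0 CPM under both treatments. These 3 rose by 0.91 ± 0.07, 0.91 ± 0.06 and 0.91 ± 0.07 on the log2 scale, without overlap with control. Mrpl49 (0.85), Mrpl10 (0.85), Mrpl43 (0.74), Mrpl13 (0.74), Mrpl24 (0.72) and Mrpl16 (0.71) of the large subunit and Mrps12 (0.69), whose product uS12m lies at the decoding center, made up the 10 highest. Mrpl13 shares 330 exon bases with Mtbp, which fell by 1.2 on the log2 scale in this comparison.

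Mrps34 and Mrpl50 led the genes that fell with both treatments. Mrps34 (mS34 of the small subunit) had 45.9, 50.7 and 51.2 CPM in control, 41.4, 39.6 and 33.2 under FK228, 48.5, 48.3 and 48.9 under YF, and 29.8, 31.8 and 28.8 under both treatments. Its level fell in steps, from control and YF to FK228 to both, with no overlap between these 3 sets, and the log2 fold change against control was -0.71 ± 0.08 (SE; adjusted p = 2.83e-08). Exons of Mrps34 share 763 bases on the same strand with Nme3 (-1.54 with both treatments) and 1309 on the other strand with Mapk8ip3 (1.39). Mrpl50 had 98.3, 98.5 and 99.6 CPM in control, 72.7, 71.7 and 66.8 under FK228, 81.1, 86.5 and 86.3 under YF, and 60.8, 61.8 and 59 under both treatments. Its log2 fold change was -0.71 ± 0.05, with no overlap between control, YF, FK228 and both. Mrpl53 (-0.59), Mrps35 (-0.58), Mrpl54 (-0.53), Mrps36 (-0.48), Mrps15 (-0.45), Mrpl12 (-0.44), Mrpl23 (-0.44) and Mrps28 (-0.42) completed the lowest 10.

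In YF cells, FK228 raised 33 of the 78 genes (42.3%) and lowered 14 (17.9%), with 31 not called and a median of 0.12. Over all genes tested it raised 34.7% and lowered 35.9%, with a median of 0.00. The highest were Mrpl30 (1.02 ± 0.07), Mrpl24 (0.76), Mrpl28 (0.75), Mrpl49 (0.72) and Mrpl10 (0.71). The lowest were Mrps34 (-0.69 ± 0.08), Mrpl53 (-0.50), Mrpl50 (-0.48), Mrps35 (-0.38) and Mrpl54 (-0.38). This comparison shares no library with FK228 versus control, so the FK228 effect could be set side by side in the 2 backgrounds. Of the 16 genes that FK228 raised without YF, 14 (87.5%) were raised with YF, a share that was 77.7% over all genes tested. Of the 30 it lowered without YF, 12 (40.0%) were lowered with YF, 1 (Mrps11) was raised and 17 were not called. Over all genes tested, 80.8% of those lowered without YF were also lowered with YF. Across the 78 genes, which are not independent replicates, the log2 fold changes had a Pearson r of 0.775 and a Spearman rho of 0.776, and 57 of 78 (73.1%) had the same sign. Over all genes tested r was 0.806, rho 0.835 and the share of the same sign 83.1%.

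**Figure D2:**
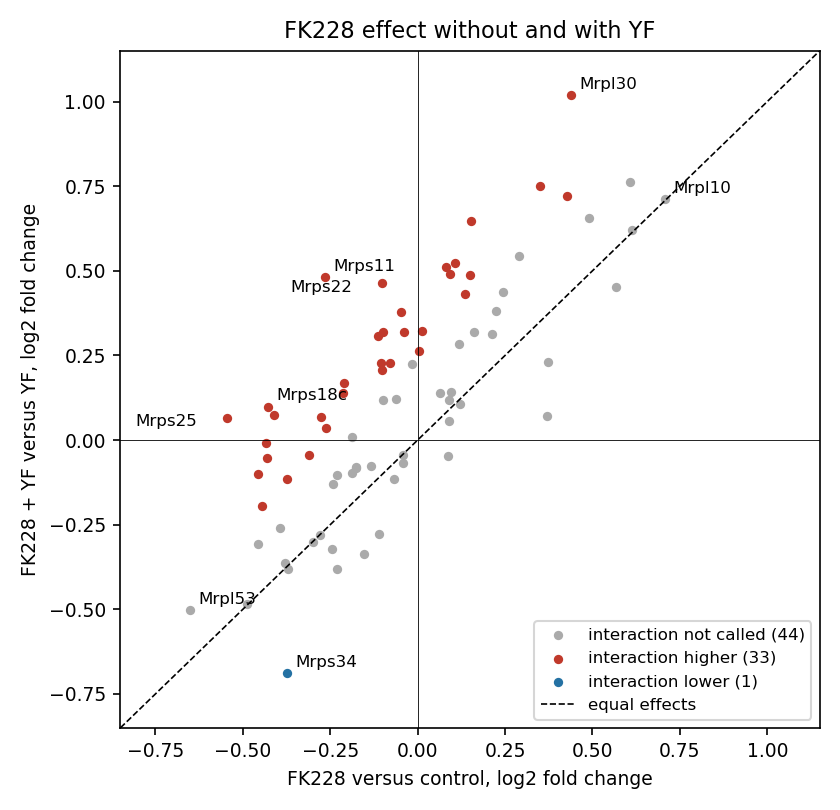
Log2 fold change of each of the 78 genes for FK228 versus control (x axis) and for FK228 plus YF versus YF (y axis), which share no library. Points are colored by the call of the interaction, and the dashed line marks equal effects; the 33 genes called higher in the interaction lie above the line and Mrps34 lies below it.

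In FK228-treated cells YF raised 40 of the 78 genes (51.3%) and lowered 9 (11.5%), beside 26.6% and 26.3% over all genes tested, and the median was 0.16. Of small subunit genes 16 were higher and 4 lower, and of large ones 24 and 5. Mrps11 (0.71 ± 0.08), Mrps22 (0.60), Mrpl13 (0.59), Mrps18c (0.58) and Mrpl28 (0.56) were highest, and Mrpl45 (-0.49 ± 0.06), Mrps35 (-0.35), Mrps34 (-0.34), Mrps28 (-0.31) and Mrpl23 (-0.26) lowest. The number lower was 5 without FK228 replicate 1, FK228 plus YF replicate 1 or FK228 plus YF replicate 3, and 16 without FK228 replicate 3. The call of Mrpl23 ended with only the groups compared and without FK228 replicate 1 (-0.13), FK228 plus YF replicate 1 or FK228 plus YF replicate 3. YF versus control shares no library with this comparison. Over the 78 genes the 2 effects of YF had a Pearson r of 0.577 and a Spearman rho of 0.549, and 44 of 78 (56.4%) had the same sign, where all genes tested gave 0.563, 0.56 and 71.3%. Mrpl45 fell with YF in both backgrounds, and Mrps23 rose in both.

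The interaction asks whether the FK228 effect with YF differed from that without, and nearly all of the 34 members called here were called in 1 direction. The effect was more positive with YF for 33 genes (42.3%), more negative for 1 (1.28%) and not called different for 44, with a median difference of 0.17 on the log2 scale. Over all genes tested 11.1% were called higher and 15.3% lower, with a median of -0.04. The counts were 21 higher and none lower of 51 large subunit genes (median 0.16), and 12 and 1 of 26 small subunit genes (median 0.23). Of the 46 genes with a bacterial homolog 23 were higher and none lower (median 0.25), and of the 31 mitochondria-specific ones 10 were higher and 1 lower (median 0.15). Whether the list as a whole differs from other genes was not tested.

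Mrps11, whose product uS11m lies on the platform of the small subunit, led the interaction. Its levels were 57.4, 53.5 and 60.3 CPM in control, 51.9, 50.2 and 40.3 under FK228, 51.9, 58.9 and 56.1 under YF, and 77.9, 76.1 and 78.9 under both treatments. FK228 lowered it without YF (-0.27 ± 0.08) and raised it with YF (0.48 ± 0.08), and the 3 libraries with both treatments lay above the other 9. Without FK228 replicate 3 the fold change without YF was -0.16 and still called. The difference was 0.75 ± 0.11 (SE; adjusted p = 5.02e-05). Mrps11 and Mrpl46, which are neighbors with 173 shared exon bases on opposite strands, were both called in the interaction, and Mrpl46 had 31.3, 31.9 and 32.4 CPM in control, 25.1, 24.2 and 22.4 under FK228, 29.3, 32 and 30.5 under YF, and 34.6, 32.4 and 29.5 under both treatments (difference 0.49 ± 0.10 (SE; adjusted p = 0.00166)). Mrps25 came next. It had 97.5, 104 and 96.5 CPM under YF and 108, 102 and 102 under both treatments, so the fall with FK228 described above was not called in YF cells (0.07, adjusted p = 0.387), and the difference was 0.61 ± 0.09 (SE; adjusted p = 7.64e-05).

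Mrpl30, for uL30m of the large subunit, rose in both backgrounds and rose more with YF. It had 186, 171 and 148 CPM under FK228 and 109, 121 and 115 under YF, and the difference was 0.58 ± 0.10 (SE; adjusted p = 0.00016). Mrps22, for the mitochondria-specific mS22, had 35.2, 36.1 and 37.8 CPM in control, 36, 32.5 and 33.1 under FK228, 34.1, 41.8 and 36 under YF, and 50.04, 52.3 and 51.9 under both treatments. Its libraries with both treatments stood above the other 9, and the difference was 0.57 ± 0.10 (SE; adjusted p = 0.000406). Mrps18c had 78.5, 71 and 76.2 CPM in control, 63, 52.6 and 52.1 under FK228, 69.9, 88.4 and 75.7 under YF, and 88.4, 78.8 and 83.5 under both treatments, where the FK228 libraries without YF lay below the other 9, and the difference was 0.53 ± 0.12 (SE; adjusted p = 0.00293). Mrps34 was the 1 gene with a lower interaction, at -0.31 ± 0.11 (SE; adjusted p = 0.0344). Its call ended without any one of 7 libraries, which were control replicate 1, FK228 replicates 1 and 2, YF replicates 1 and 3, and FK228 plus YF replicates 1 and 3, and 2 genes were lower without FK228 replicate 3.

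**Figure D3:**
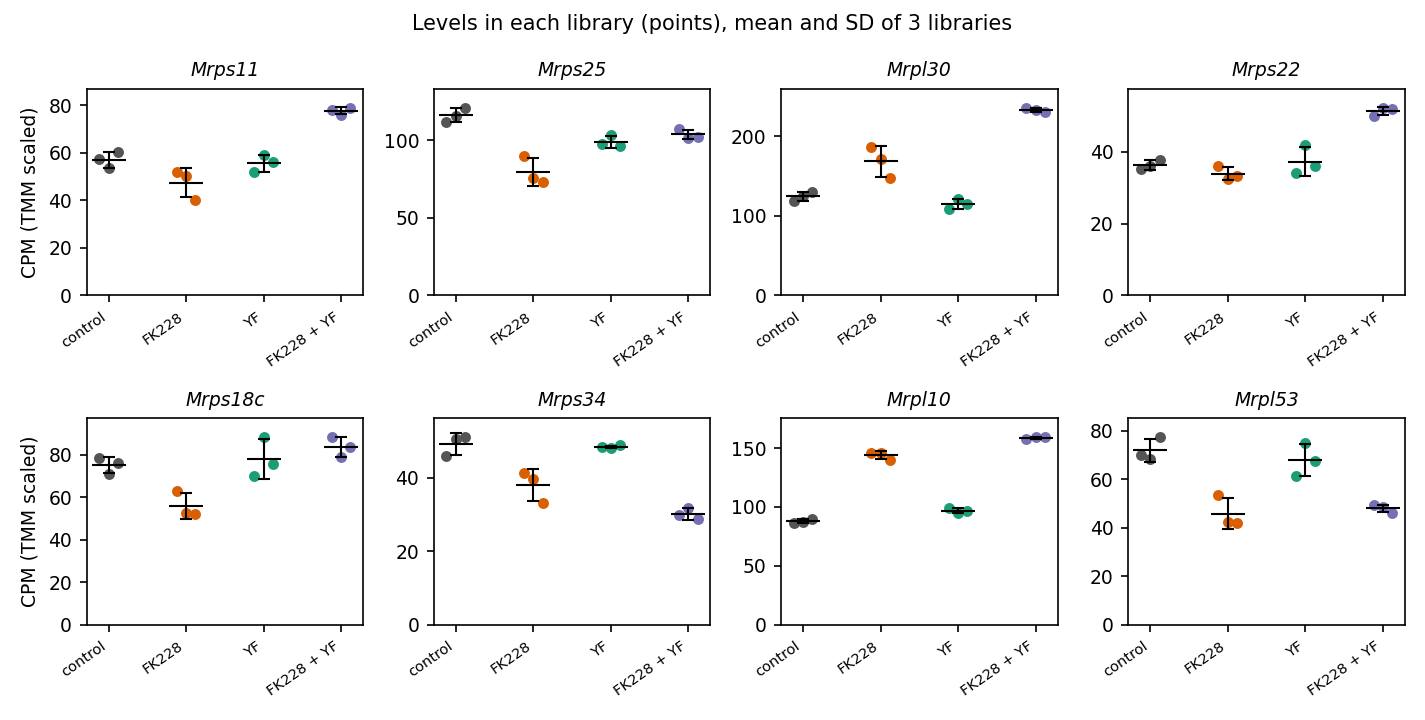
CPM with TMM scaling (y axis, from 0) of 8 genes in the 12 libraries. Points are libraries, and bars give the mean and SD of 3. Mrps11 and Mrps22 were highest with both treatments, the FK228 libraries of Mrps25 and Mrps18c were the lowest, and Mrpl10 and Mrpl53 followed FK228 with and without YF.

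The count of genes higher in the interaction lay between 23 and 33 over 12 fits that each omitted 1 library, and 22 of the 33 were called under all 19 alternatives run. The median difference was 0.25 without FK228 replicate 1 and 0.13 without FK228 replicate 3. Among the 55 genes that share no exon bases with another coding gene, 23 were higher and none lower (median 0.16). The 78 genes are short: 61 lie in the lowest quintile of length among genes tested, where 13.4% of all genes were higher in the interaction and 12.9% lower. Of those 61, 37.7% were higher and 1.64% lower, and of the 17 longer ones 58.8% were higher and none lower.

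Summed over the 78 genes, counts made up 0.622, 0.600 and 0.633% of a control library. The shares were 0.637, 0.605 and 0.566% under FK228, 0.607, 0.641 and 0.625% under YF, and 0.711, 0.689 and 0.682% under both treatments. By counts the libraries with both treatments lay above the other 9, which overlapped. By TPM the share was 0.9635 to 1% in control and 0.9085 to 0.9632% under FK228. It was 0.9944 to 1.038% under YF and 1.039 to 1.066% under both treatments. By TPM both treatments were again highest and FK228 alone was lowest, each by a narrow margin. The ratio of summed large to small subunit counts, which does not depend on the scaling between libraries, behaved otherwise. It was 2.52, 2.50 and 2.50 in control, 2.83, 2.84 and 2.90 under FK228, 2.53, 2.52 and 2.52 under YF, and 2.79, 2.78 and 2.71 under both treatments. All 6 libraries with FK228 lay above the 6 without, and by counts those of FK228 alone were highest. By TPM the 6 libraries with FK228 again lay above the rest, but FK228 alone (2.68 to 2.75) and both treatments (2.62 to 2.74) overlapped. Sums of counts are weighted to abundant and long transcripts. Per gene, the median log2 level against control under FK228 was -0.04 ± 0.13 (SD, n = 3 libraries) for large and -0.14 ± 0.11 for small subunit genes. With both treatments the median log2 level against control was 0.10 ± 0.04 (SD, n = 3 libraries) for large and 0.09 ± 0.03 for small subunit genes.

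**Figure D4:**
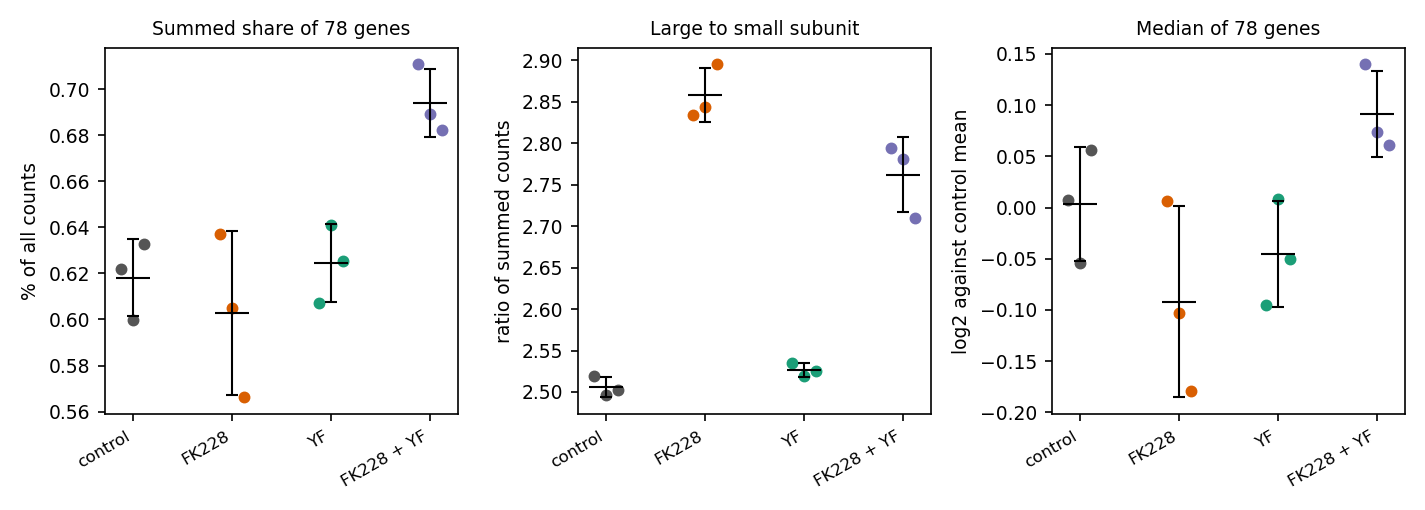
For each of the 12 libraries, the share of counts in the 78 genes (left, %), the ratio of large to small subunit counts (middle) and the median log2 level of the 78 genes against the control mean (right). Bars give the mean and SD of 3 libraries, and the y axes do not start at 0. The share is highest with both treatments, from 0.682 to 0.711%, and the ratio is highest with FK228, from 2.83 to 2.90.

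By place in the ribosome the genes did not move as units. The stalk holds uL10m, uL11m and several copies of bL12m. Mrpl10 rose with FK228, as shown above, while Mrpl11 had 99.5, 94.7 and 106 CPM in control and 81.2, 77 and 73.5 under FK228 (-0.37 ± 0.07) and Mrpl12 had 138, 144 and 157 CPM in control and 138, 122 and 110.3 under FK228 (-0.24 ± 0.07), and both fell. Mrpl12 had 110.3, 109.5 and 104 CPM under both treatments, lower than in control (log2 fold change -0.44). Mrpl11 was called in the interaction at 0.26 ± 0.09 (SE; adjusted p = 0.0442), a call that 10 of 19 alternatives ended, 8 of them by leaving out 1 library (control 3, FK228 2 or 3, any 1 YF library, or FK228 plus YF 1 or 2).

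At the exit of the peptide tunnel, FK228 raised Mrpl24, Mrpl45 and Mrpl47 (0.24) and lowered Mrpl44 (-0.24), and 3 of the 7 genes (Mrpl17, Mrpl22 and Mrpl23) were not called. The call of Mrpl47 ended without control replicate 2 (0.16) or FK228 replicate 1 (0.20), and that of Mrpl44 without FK228 replicate 3 (-0.18). None of these 7 was called in the interaction, with values from -0.18 to 0.19. Mrpl45 responded to YF: levels were 78, 82.6 and 78.9 CPM under YF and 112, 109 and 106 under both treatments, lower than without YF in untreated and in FK228-treated cells. Mrpl47 shares 616 exon bases with Ndufb5 and 452 with Actl6a, which both fell with FK228 (-0.24 and -0.85).

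Of the central protuberance, which contacts the small subunit, Mrpl38 rose with FK228 (0.16), Mrpl46 and Mrps30 fell (-0.41 and -0.19), and Mrpl40 and Mrpl48 were not called (-0.04 and -0.06). The FK228 call of Mrpl38 ended with total counts alone (0.11) and without control replicate 1 (0.0985) or FK228 replicate 1 (0.15), and that of Mrps30 with DESeq2, with only the groups compared, and without control replicate 3 or FK228 replicate 2 or 3 (values from -0.16 to -0.14). Mrpl38 had 135, 150.3 and 158 CPM in control and 134, 122 and 127 under YF and was called lower with YF (-0.21), a call that ended with total counts alone and without control replicate 3 or YF replicate 2 (-0.16 to -0.18). With both treatments Mrpl40 (-0.22) and Mrps30 (-0.32) were lower than in control.

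The 3 paralogs of bacterial S18 sit in different places: Mrps18c and Mrps18b encode small subunit proteins, and Mrps18a one of the large subunit. Mrps18a had 63.2, 59.1 and 64.9 CPM in control, 67.5, 68.6 and 62 under FK228, 59.3, 67.7 and 60.3 under YF, and 94.8, 85.8 and 86.4 under both treatments and was highest with both treatments, without overlap (0.51 ± 0.07 against control; interaction 0.43 ± 0.09 (SE; adjusted p = 0.00179)). In Mrps18b the values were 75.5, 72.7 and 82.7 CPM in control, 88.2, 81.5 and 76 under FK228, 68.7, 72.7 and 69.1 under YF, and 72.3, 74.5 and 71.8 under both treatments, and the FK228 libraries lay above those of YF and of both treatments while the other groups overlapped. It was called only against FK228, where both treatments gave -0.17 (adjusted p = 0.0296). That call ended with total counts alone (-0.105, adjusted p = 0.153) and without FK228 replicate 1 or FK228 plus YF replicate 1 or 3 (-0.13 to -0.16). Its interaction was -0.04 (adjusted p = 0.806). The paralogs thus had interaction values of 0.43, -0.04 and, for Mrps18c, 0.53.

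The 5 mitoribosomal proteins that the symbol rule misses moved in both directions too. Dap3, a GTP-binding protein of the small subunit head, had 78.5, 79.5 and 80.0 CPM in control, 122, 118 and 113 under FK228, 79, 81 and 78.3 under YF, and 139.9, 133 and 129 under both treatments. FK228 raised it in both backgrounds, by 0.57 ± 0.05 and 0.75 ± 0.05. Chchd1 had 76.3, 70.7 and 74.3 CPM in control, 66.5, 51.6 and 49.1 under FK228, 57.5, 71.3 and 65.1 under YF, and 46.7, 43.1 and 43.2 under both treatments. Gadd45gip1 had 49.8, 50.1 and 58.5 CPM in control, 46.7, 41.7 and 39.1 under FK228, 48.3, 46.8 and 48.2 under YF, and 38, 34.9 and 32.5 under both treatments. Both fell with FK228 (-0.40 and -0.31) and further with both treatments (-0.73 and -0.59 against control). Aurkaip1 had 61.9, 65.5 and 69.4 CPM in control, 79, 73.2 and 70.2 under FK228, 65.5, 69.4 and 70.3 under YF, and 94.6, 89.8 and 91.6 under both treatments and Ptcd3 had 101, 88.2 and 91.1 CPM in control, 98.4, 102 and 98.2 under FK228, 83.3, 98.6 and 89.9 under YF, and 126, 120.4 and 122 under both treatments, each highest with both treatments, and both were called higher in the interaction (0.25 ± 0.09 and 0.35 ± 0.09).

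Other genes of mitochondrial gene expression were read from fixed lists. Their counts stand beside 33.2% higher and 35.5% lower of all genes tested with FK228, 38.8% and 38.6% with both treatments, and 11.1% and 15.3% in the interaction. Of 24 mitoribosome assembly genes, FK228 raised 5 and lowered 10 (20.8% and 41.7%), both treatments raised 9 and lowered 7 against control (37.5% and 29.2%), and the interaction was higher for 5 and lower for 1 (20.8% and 4.17%). Mpv17l2, which acts in large subunit assembly, had 48, 53.1 and 56.8 CPM in control, 86.7, 74.6 and 70.3 under FK228, 60.5, 48.6 and 59.6 under YF, and 119, 109.5 and 109.6 under both treatments, and rose by 1.1 ± 0.09 with both treatments. Afg3l2, a subunit of the protease that matures Mrpl32, rose by 0.74. The pseudouridine synthase gene Rpusd4 (-0.88) and the rRNA methyltransferase gene Mrm1 (-0.80) were lower with both. Noa1 (0.41) and Rbfa (0.38) were among those higher in the interaction.

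Of 15 translation factor genes, 4 rose and 5 fell with FK228 (26.7% and 33.3%), 6 rose and 5 fell with both treatments (40% and 33.3%), and 2 were higher (13.3%) and none lower in the interaction. These 2 were Gfm1, for mitochondrial elongation factor G, and Lrpprc, an RNA-binding protein that stabilizes mitochondrial mRNAs. Gfm1 had 59.8, 46.5 and 56.4 CPM in control, 48.3, 44.1 and 47.4 under FK228, 60.5, 68.5 and 62.8 under YF, and 85.8, 90.8 and 91 under both treatments, with FK228 lowering it without YF (-0.22) and raising it with YF (0.48), a difference of 0.70 ± 0.11 (SE; adjusted p = 8.15e-05). Lrpprc had 45.9, 40.4 and 39.9 CPM in control, 42.2, 45 and 51.4 under FK228, 48.2, 52.8 and 53.9 under YF, and 73.8, 79.3 and 78 under both treatments, a difference of 0.44 ± 0.11. Tufm, for elongation factor Tu, followed FK228 in both backgrounds, with 198, 202 and 212 CPM in control, 333, 319 and 332 under FK228, 217, 214 and 211 under YF, and 371, 365 and 361 under both treatments, and its interaction was 0.09 (adjusted p = 0.397).

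Among 20 aminoacyl-tRNA synthetase and amidotransferase genes 7 rose and 7 fell with FK228 (35% each), 6 rose and 8 fell with both (30% and 40%), and 2 were higher and 1 lower in the interaction (10% and 5%). Nars2, the asparaginyl-tRNA synthetase gene, rose from 10.8, 10.3 and 11.6 CPM in control to 29.1, 29.6 and 29.7 CPM under both treatments (1.43 ± 0.09), while Qrsl1, an amidotransferase subunit, fell with FK228 (log2 fold change -0.87) and Ears2 fell with both (-0.88). Of 20 genes for transcription of mitochondrial DNA and processing of its RNA, 4 rose and 7 fell with FK228 (20% and 35%), 7 rose and 5 fell with both (35% and 25%), and 3 were higher and 1 lower in the interaction (15% and 5%). The transcription factor gene Tfb2m (0.56 ± 0.09), the tRNA 3′ processing gene Elac2 (0.63 ± 0.09) and Fastkd3 (0.60) were the higher ones and Twnk (-0.35) the lower.

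**Figure D5:**
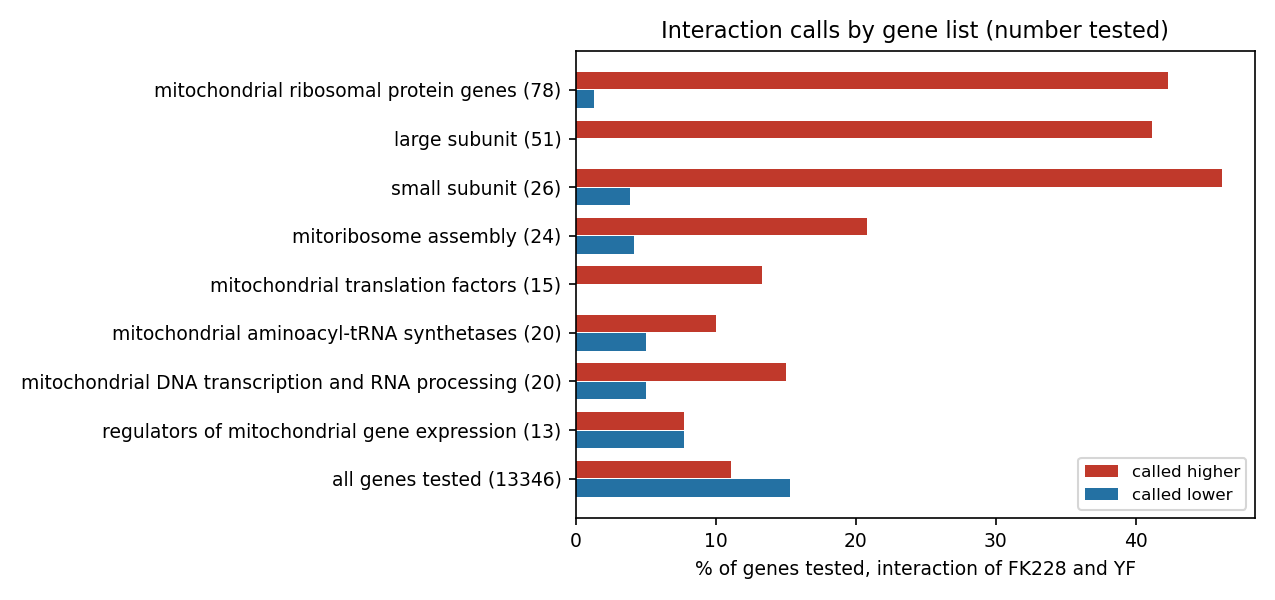
Percentage of the tested genes of each list (x axis) called higher (red) or lower (blue) in the interaction, with the number tested in parentheses; the last bar pair is all genes tested. The 78 mitochondrial ribosomal protein genes have 42.3% higher and 1.28% lower, and all genes tested 11.1% and 15.3%.

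Of 13 regulators known to act on nuclear genes of mitochondria, FK228 raised 2 and lowered 7 (15.4% and 53.8%, beside 33.2% and 35.5% of all genes tested). YF alone raised none and lowered 1 (7.69%), beside 18% higher and 14.6% lower over all genes tested. Both treatments raised 2 and lowered 9 against control (15.4% and 69.2%, beside 38.8% and 38.6%), with a median of -0.52. Ppargc1a, for the coactivator PGC-1alpha, had 9.8, 9.55 and 9.45 CPM in control, 12.7, 13.9 and 15.1 under FK228, 9.92, 9.22 and 9.9 under YF, and 11, 13 and 13.3 under both treatments and rose with FK228 (log2 fold change 0.53 ± 0.10). Nrf1, for a factor that binds promoters of many such genes, had 32.3, 30.4 and 32.3 CPM in control, 20.3, 23.9 and 23.4 under FK228, 26.6, 27.3 and 28.8 under YF, and 15.4, 17.9 and 16.4 under both treatments and fell with both treatments (log2 fold change -0.93 ± 0.08). Gabpb1 (-0.53) and Gabpb2 (-0.72), which encode partners of the ETS factor GABPA, and the cofactor gene Hcfc1 (-0.76) fell too. Myc had 59.1, 52.6 and 64.2 CPM in control, 68.5, 71.2 and 68.1 under FK228, 55.2, 59.1 and 57 under YF, and 38.6, 46.7 and 37.1 under both treatments: it rose with FK228 alone (0.24) and fell with FK228 in YF cells (-0.48), an interaction of -0.72 ± 0.11 (SE; adjusted p = 7.96e-05). The level of the partner gene Max rose with both treatments (0.44).

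Promoter windows of 250 bases before to 50 after the start were available for 69 of the 78 genes, 75 windows in all, in the RefSeq table. The motifs searched on both strands were NRF1 (GCGCATG), GABPA and ETS (CCGGAAG), YY1 (AAGATGG) and the E-box (CACGTG), which do not contain each other. The ETS motif was in 34.7% of the windows of these genes, beside 16.4% of the 13611 windows of 10651 genes tested. YY1 was in 17.3% and 6.8%, NRF1 in 10.7% and 6.35%, and the E-box in 9.33% and 9.43%. A match is a description of letters and no test was made. Of the 26 genes with an ETS match 8 were higher in the interaction, and of the 43 without one 22 were. In the 13 genes with a YY1 match 8 were higher, in the 56 without 22. For NRF1 it was 1 of 8 genes with a match and 29 of 61 without. For the E-box it was 3 of 5 with a match and 27 of 64 without. A neighbor on the other strand whose start lies within 1000 bases upstream, not counting pairs whose 5′ ends overlap, was found for 20 of 78 genes (25.6%), beside 15.3% of 12834 genes tested that could be placed. For Mrpl10 (chromosome 11, 97041560 to 97049213, GRCm38, GENCODE) this neighbor is Lrrc46, 153 bases away, and for Mrpl30 (chromosome 1, 37890477 to 37898535) it is Mitd1, 66 bases away. Mrps25 (chromosome 6, 92169525 to 92184033) and Mrps22 (chromosome 9, 98588730 to 98601660) had none by this count. The 5′ ends of Mrps11 (chromosome 7, 78783119 to 78792989) and Mrpl46 (78775236 to 78783531) overlap on opposite strands, so this pair is outside it.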

How the data were processed

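RNA of AML12 cells was sequenced in 12 libraries, 3 each of control, FK228, YF, and FK228 plus YF, grouped by their labelled titles. Per the file headers the authors deposited expected counts for each gene. Column totals differ between libraries, so these are unscaled, and 16.6% of the values are not whole. The deposited TPM, per the file headers, was used to compare levels between genes. It also served for the subunit ratio and the share of the 78 genes by TPM, and, with the counts, for gene length. RSEM 1.2.12, HISAT2 2.0.4, DESeq2 1.4.5 and Bowtie2 2.2.5 appear in the submitters' processing notes with no role or order, as does GRCm38.p6. The annotation, the strand setting and any earlier filter: not given in the sources used here.

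Here the counts were rounded to whole numbers, genes with few counts were removed with filterByExpr (13346 of 19037 stayed), and library sizes were scaled by TMM. An edgeR 4.0.16 quasi-likelihood model with robust dispersions and 1 term per group was fitted to the 12 libraries (limma 3.58.1, R 4.3.3), with Benjamini-Hochberg adjustment over all genes tested and calls at 0.05. The SE is the log2 fold change divided by the square root of the F statistic. CPM carry TMM factors. Median levels per library used log2 of CPM plus 0.5. Library totals were 23664446 to 26122998 counts. A simulation drew counts for the control and FK228 libraries only (12359 genes), with 50 genes changed at each size and the rest unchanged. The calls recovered 22% of the genes with a simulated log2 change of 0.25, 80% at 0.5 and 100% at 1 and at 2, with 18 false calls. The real fit used 12 libraries and called 33.2% of genes higher and 35.5% lower with FK228. The recovered shares need not hold for it, and counts per library were not varied. Shared exon bases and neighbors came from GENCODE vM21, promoters from RefSeq.

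Alternatives were RLE scaling, total counts without TMM factors, no count filter, at least 5 CPM in 3 libraries, DESeq2 1.42.0, limma-voom, only the groups compared, the replicate number as a block, leaving out each library, subunits by symbol and TPM in place of counts. Named genes were the 10 highest and 10 lowest called members with a mean CPM of 5 or more in FK228 and in FK228 plus YF versus control, 5 and 5 in the other comparisons, every gene of 4 structural groups and of the 5 proteins outside the symbol rule, and up to 4 called genes with the largest changes per other list (mean CPM of 1 or more). The members and lists were chosen with earlier results of these data known. Replicate libraries differed beyond sampling noise, so none was counted as a duplicate.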

Additional observations from a re-analysis of the deposited data

Results flagged for a closer look

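Each value here is a difference between the FK228 effect with YF and that without, tested as the interaction in edgeR, and was taken up because it passed that test. Of the 78 mitochondrial ribosomal protein genes, 33 had a more positive and 1 a more negative FK228 effect with YF. The largest log2 differences were 0.75 for Mrps11, 0.61 for Mrps25, 0.58 for Mrpl30, 0.57 for Mrps22 and 0.53 for Mrps18c, with Mrps34 at -0.31. Of the structural groups, Mrpl46 (0.49), Mrps18a (0.43) and Mrpl11 (0.26) passed as well, and outside the symbol rule Ptcd3 (0.35) and Aurkaip1 (0.25). Of the other lists, the genes named by rule were Ears2 (-0.39), Elac2 (0.63), Eral1 (0.35), Fars2 (0.32), Fastkd3 (0.60), Gfm1 (0.70), Hars2 (0.38), Lrpprc (0.44), Max (0.25), Mpv17l2 (0.45), Myc (-0.72), Noa1 (0.41), Rbfa (0.38), Tfb2m (0.56) and Twnk (-0.35). Groups of 3 libraries were too small to look for single outlying libraries.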

How the results depend on the processing

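No member call reversed under any alternative run. Called under every alternative were 34 of 46 members in FK228 versus control, 4 of 13 in YF versus control, 48 of 58 in both treatments versus control, 41 of 47 versus YF, 40 of 49 versus FK228, and 22 of 34 in the interaction, where all 22 were higher. Limma-voom changed no member call. In YF versus control, members higher were 4 by default but 2 with RLE scaling, 2 with no count filter and 10 with total counts alone; total counts gave 5 lower and a median of 0.011 in place of -0.043, and for both treatments versus FK228 a median of 0.22 in place of 0.16. No scaling moved the median of all genes by over 0.1, and with total counts alone it was 0.06 in YF versus control. Same-numbered libraries of different groups had a median correlation of -0.0268 (range -0.44 to 0.231, 2 of 18 over 0.1). For different numbers it was 0.036 (range -0.236 to 0.447, 9 of 36 over 0.1). Of 36 searches, 10 found the best correlation with the same number. Equal numbers thus showed no sign of marking paired libraries. Whether libraries of different numbers shared a batch was not tested. A fit with the replicate block left 15 higher and 28 lower in FK228 versus control, 3 and 9 in YF versus control, 33 and 24 for both versus control, 33 and 14 versus YF, 39 and 9 versus FK228, and 30 and 1 in the interaction.

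Leaving out 1 library at a time gave, for members higher and lower, 12 to 22 and 24 to 34 in FK228 versus control, 1 to 4 and 5 to 11 in YF versus control, 28 to 35 and 20 to 26 for both versus control, 30 to 35 and 11 to 14 versus YF, 36 to 41 and 5 to 16 versus FK228, and 23 to 33 and 0 to 2 in the interaction. Medians ran from -0.13 to -0.05, -0.08 to -0.01, 0.07 to 0.13, 0.08 to 0.15, 0.12 to 0.19 and 0.13 to 0.25 in that order. The ratio of large to small subunit counts was 2.16 in control, 2.47 under FK228, 2.19 under YF and 2.41 under both treatments when subunits were taken by symbol, and 2.37, 2.72, 2.41 and 2.69 by TPM. The share of the 78 genes by TPM was 0.986%, 0.934%, 1.02% and 1.06% in the same order. The cause of these shifts was not tested.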
